A study of Mus musculus with 10 samples.

Results

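The Notch ligands and receptors were measured here as 20 probe sets of 10 genes, out of 45101 probe sets on the array. A probe set is a group of short probes against the transcripts of a gene. Every probe set whose platform annotation named Jag1, Jag2, Dll1, Dll3, Dll4, Dlk1 or Notch1 to Notch4 as its only gene was taken, and 0 probe sets named a member beside another gene. Total RNA of osteoblasts, the bone-forming cells, was hybridised to 10 Affymetrix arrays. There were 4 arrays of wild-type mice, 3 of mice with osteoblast-specific, constitutively expressed β-catenin (the β-catenin group) and 3 of mice with FoxO1 deleted specifically in osteoblasts (the FoxO1 group). All samples carried the background strain label C5BL6 and an age of 2 to 3 days, with no treatment. The form of β-catenin expressed, the driver of the osteoblast specificity and the deleted part of Foxo1 are not given in the sources used here. Whether a sample stood for 1 animal, a pool or a culture is not given, so p-values reflect the spread from array to array, part of which may be technical.

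Notch signalling passes between touching cells. A ligand of the Jagged or Delta-like family on one cell binds a Notch receptor on the next, the receptor is cut by a metalloprotease and then by γ-secretase, and its intracellular domain joins RBPJ in the nucleus to switch on genes of the Hes and Hey families. In bone, Jagged1 on osteoblastic cells is known as a signal to neighbouring blood-forming cells, which carry Notch receptors, and Notch activity within the osteoblast lineage is known to restrain its maturation. The arrays therefore bear on which ligands the RNA of the osteoblast samples held, and on whether their levels differed between the genotypes. They do not show which cells of a sample made that RNA.

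Stretches before an annotated start of Jag1, Notch3 and Dlk1 are shown. For Jag1 and Notch3, 2 Jag1 probe sets (1434070_at and 1421105_at) and 1 Notch3 probe set (1421965_s_at) moved together across the arrays. Dlk1 was the only member gene with a match to a searched motif. Each is the 250 bases before an annotated start, on the gene's strand, from RefSeq on GRCm38.p6. They lie at chr2:137116521-137116770 (minus strand) for Jag1, chr17:32166891-32167140 (minus strand) for Notch3 and chr12:109452573-109452822 (plus strand) for Dlk1. The annotated Dlk1 gene spans chr12:109452485-109463336, so the Dlk1 window lies inside the gene and not before it. The Notch3 window overlaps the edge of its gene, at chr17:32166896, by a few bases. Capitals mark the motif matches.
Jag1: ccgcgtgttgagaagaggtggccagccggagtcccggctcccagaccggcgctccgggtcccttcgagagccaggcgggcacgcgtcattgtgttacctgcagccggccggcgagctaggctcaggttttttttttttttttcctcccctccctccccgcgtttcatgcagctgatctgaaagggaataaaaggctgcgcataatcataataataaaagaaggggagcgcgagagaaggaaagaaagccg
Notch3: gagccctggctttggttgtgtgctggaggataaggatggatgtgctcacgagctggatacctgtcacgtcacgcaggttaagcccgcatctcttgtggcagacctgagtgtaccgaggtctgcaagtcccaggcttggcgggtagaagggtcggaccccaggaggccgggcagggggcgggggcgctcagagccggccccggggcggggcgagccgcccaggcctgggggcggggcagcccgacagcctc
Dlk1: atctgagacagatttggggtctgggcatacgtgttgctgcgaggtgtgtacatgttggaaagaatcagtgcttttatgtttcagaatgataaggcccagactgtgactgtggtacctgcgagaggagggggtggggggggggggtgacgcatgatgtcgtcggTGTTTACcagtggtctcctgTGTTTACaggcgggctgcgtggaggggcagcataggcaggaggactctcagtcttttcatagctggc

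Promoters of all 10 genes were in the RefSeq table, 11 in all because Dll1 had 2. They were searched on both strands for the TCF/LEF core CTTTGA, through which β-catenin's partners bind DNA, the RBPJ core TGGGAA of Notch-responsive genes and the FOXO core GTAAACA. None of the 3 motifs contains another. Dlk1 held the FOXO core on the reverse strand, as TGTTTAC, at 87 to 81 and at 67 to 61 bases before the start used. Both matches lie inside the annotated span of the gene. The other 9 genes had no match in their windows. Of 32851 promoters of the same length, 13.8% held the TCF/LEF core, 21.6% the RBPJ core and 3.17% the FOXO core. These are matches of letters and not measured binding.

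Values below are log2 MAS5 signal, so a difference of 1 is a doubling of signal. A probe set was tested if at least 3 of its 10 arrays exceeded 7.15, the median of the whole table. Of the 20 member probe sets 15 passed, among 20119 probe sets of 11356 genes in all. Signals of different probe sets cannot be set against each other, so levels are compared only between arrays. Differences are given ± SE with 95% intervals from limma, and adjusted p-values are Benjamini-Hochberg values over all 20119 probe sets. In bulk RNA, fewer cells of a type and less RNA per cell cannot be told apart.

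The mean signal of 7 tested osteoblast markers was 13.65 in wild type, 13.80 in the β-catenin group and 13.76 in the FoxO1 group. Runx2, Spp1 and Bglap are not listed in the annotation used here. Ctnnb1, which encodes β-catenin, had 3 tested probe sets that differed between the β-catenin group and wild type by -0.34 to -0.03 (lowest adjusted p = 0.0942). Foxo1 had 3 tested probe sets that differed between the FoxO1 group and wild type by -0.17 to 0.10 (lowest adjusted p = 0.721), at 9.67 to 10.13 against 9.93 to 10.09 for 1416983_s_at. Neither altered gene thus had a called change in its own group, and whether these probe sets lie in the altered parts is not given. Wild type 1 and 2 correlated with each other at 0.988 and wild type 3 and 4 at 0.987, against 0.971 to 0.972 between the pairs, so the wild-type spread may rest on fewer independent units than arrays. Xist signal was high in wild type 3 and 4 and in FoxO1 arrays 2 and 3, at 14.05 to 14.43, and at 8.96 or less in the other 6. Eif2s3y signal ran the other way, at 2.84 to 4.34 in the arrays high in Xist and 10.78 to 11.29 in the rest. All 3 β-catenin arrays were thus low in Xist while wild type held both kinds, so the β-catenin comparison is partly confounded with it. The 3′ over 5′ signal ratio of Actb, a measure of RNA integrity, was 0.60 to 0.77 in wild type on the log2 scale. It was 0.85 to 0.88 in the β-catenin group and 0.80 to 0.99 in the FoxO1 group. The same ratio of Gapdh overlapped between all groups, at 0 to 0.22, 0.02 to 0.31 and 0.18 to 0.33 in that order. The part of RNA integrity in the differences of the members was not tested. The 8 chondrocyte markers averaged 9.71 to 10.32 in wild type, 10.60 to 10.91 in the β-catenin arrays and 10.50 to 11.93 in the FoxO1 arrays, and 4 tested erythroid markers 7.97 to 9.30, 5.62 to 6.98 and 6.32 to 8.56. In the same order, 6 tested osteoclast markers averaged 11.65 to 12.42, 11.52 to 11.88 and 11.07 to 11.95. The 8 leukocyte and macrophage markers averaged 9.72 to 10.08, 9.46 to 9.96 and 9.51 to 10.21. None of these was called, and their part was not tested either. The samples thus held signal of markers of cell types other than osteoblasts, and the cells behind the member signals were not tested.

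No Notch ligand or receptor passed the test in any of the 3 comparisons. Against wild type, the β-catenin group had 0 of 15 member probe sets called (2 at an unadjusted p under 0.05). Over all probe sets 0.398% were called higher and 0.109% lower. The FoxO1 group had 0 of 15 called against wild type (2 at an unadjusted p under 0.05), where 0.00497% of all probe sets were called higher and 0.00994% lower. Between the β-catenin and FoxO1 groups 0 of 15 were called (3 at an unadjusted p under 0.05), where 0.408% of all were called higher and 0.0348% lower. Both comparisons with wild type use the same 4 wild-type arrays.

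The signs were uneven in the β-catenin group. There, 12 of 15 member probe sets had a positive difference from wild type, with a median of 0.28, against a median of -0.003 over all 20119 probe sets. The 9 ligand probe sets had a median of 0.28 and the 6 receptor probe sets one of 0.28. In the FoxO1 group 9 of 15 were positive, with a median of 0.02 against -0.01 over all probe sets. Several of these probe sets belong to the same gene and all share the same arrays, so they are not independent.

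All 3 β-catenin arrays lay above all 4 wild-type arrays for 4 of 15 member probe sets (Jag1 1434070_at and 1421105_at, Notch1 1418634_at and Notch3 1421965_s_at), where 6.39% of all probe sets did, and below them for 1 (Notch2 1455556_at), where 6.81% did. The FoxO1 arrays lay above wild type for 1 (Jag1 1421106_at), where 4.11% of all did, and below for 1 (Dll1), where 4.96% did. The β-catenin arrays lay above the FoxO1 arrays for 3 (Dll1 and both Notch3 probe sets), where 5.42% of all did, and below for 0, where 4.19% did.

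**Figure D1:**
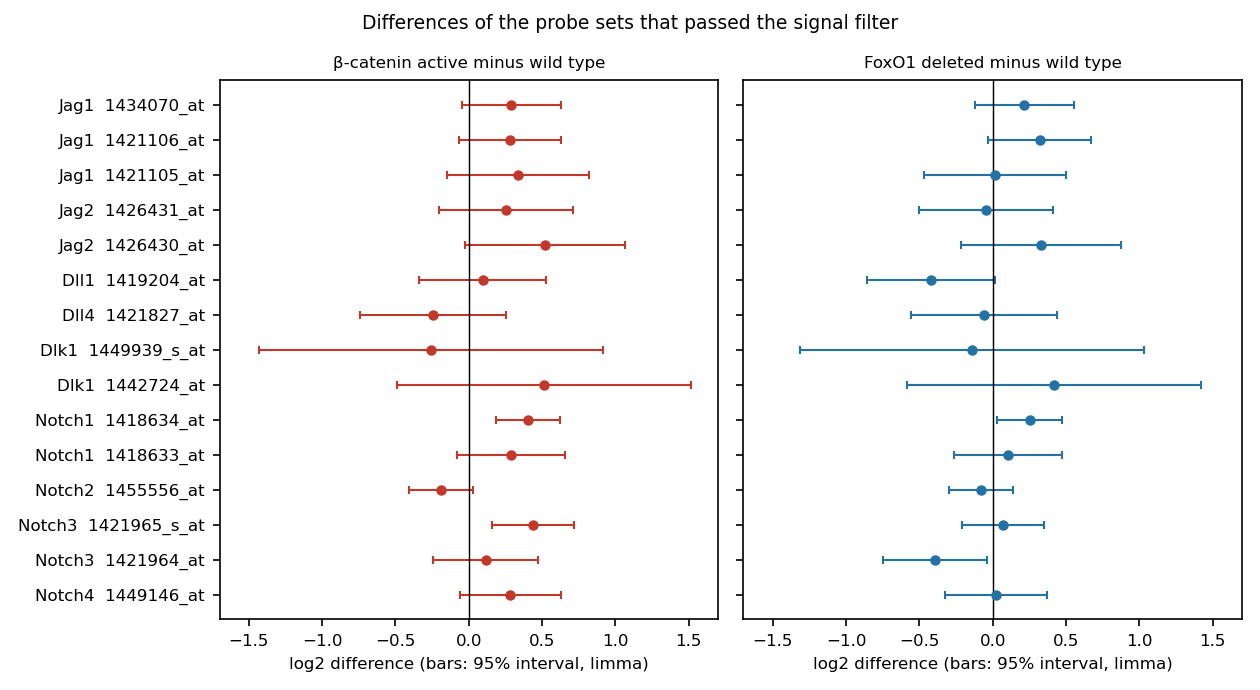
Log2 difference from wild type of each of the 15 tested probe sets, with 95% intervals from limma as bars, for the β-catenin group (left) and the FoxO1 group (right). On the left only the intervals of Notch1 1418634_at and Notch3 1421965_s_at lie wholly above 0; on the right that of Notch1 1418634_at lies above 0 and that of Notch3 1421964_at below 0, and the Dlk1 intervals are the widest.

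Jag1 encodes Jagged1, the ligand proposed to act from osteoblasts on blood cells. Its brightest probe set, 1434070_at, read 10.76, 10.79, 10.69 and 10.76 in wild type 1 to 4. It read 11.31, 10.96 and 10.85 in the β-catenin arrays and 10.94, 11.34 and 10.62 in the FoxO1 arrays. All 3 β-catenin arrays lay above the tightly grouped wild-type arrays, the first of them furthest, while the FoxO1 arrays spread to both sides. The β-catenin group was higher by 0.29 ± 0.15, or 1.22-fold, with an interval of -0.05 to 0.63 (adjusted p = 0.525). Without β-catenin array 1 the difference was 0.16. The FoxO1 group differed by 0.22 ± 0.15, with an interval of -0.12 to 0.55 (adjusted p = 0.750). That value was 0.03 without FoxO1 array 2 and 0.39 without FoxO1 array 3.

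The second Jag1 probe set, 1421106_at, read 8.12, 8.14, 8.33 and 7.81 in wild type. It read 8.67, 8.21 and 8.26 with active β-catenin and 8.54, 8.38 and 8.34 with FoxO1 deleted. Here it was the FoxO1 arrays that cleared all wild-type arrays, by a gap of 0.01, whereas the β-catenin arrays overlapped them. The FoxO1 group was higher by 0.32 ± 0.16 (interval -0.03 to 0.67, adjusted p = 0.660). The β-catenin group was higher by 0.28 ± 0.16 (interval -0.07 to 0.63, adjusted p = 0.562).

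The third Jag1 probe set, 1421105_at, read 7.48, 7.66, 7.58 and 7.72 in wild type. It read 8.23, 7.81 and 7.80 in the β-catenin arrays, all above wild type, and 7.81, 8.01 and 7.06 in the FoxO1 arrays, which held both the lowest value and one of the highest. The differences were 0.34 ± 0.22 (interval -0.15 to 0.82, adjusted p = 0.632) and 0.02 ± 0.22 (interval -0.47 to 0.50, adjusted p = 0.992). Across the 10 arrays, which share their depth of labelling and their scaling, 1434070_at and 1421105_at correlated at r = 0.86 (Spearman's rho = 0.95). 1421106_at correlated with them less, at 0.55 and 0.36, which fell to 0.19 and 0.18 without the 2 arrays furthest from the median. In the β-catenin group the 3 probe sets had positive differences, which for 1421106_at and 1421105_at were 0.14 and 0.20 without β-catenin array 1. In the FoxO1 group the differences were 0.22, 0.32 and 0.02, with overlapping intervals. The upper bounds of the unadjusted intervals in the β-catenin group stood at 1.54-, 1.55- and 1.77-fold signal. They treat the wild-type arrays as independent, so they are not a ceiling on the change of Jag1. Directly between both altered genotypes, the differences were 0.07 (interval -0.28 to 0.43), -0.04 (-0.41 to 0.33) and 0.32 (-0.20 to 0.84), with adjusted p of 0.839 or more.

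**Figure D2:**
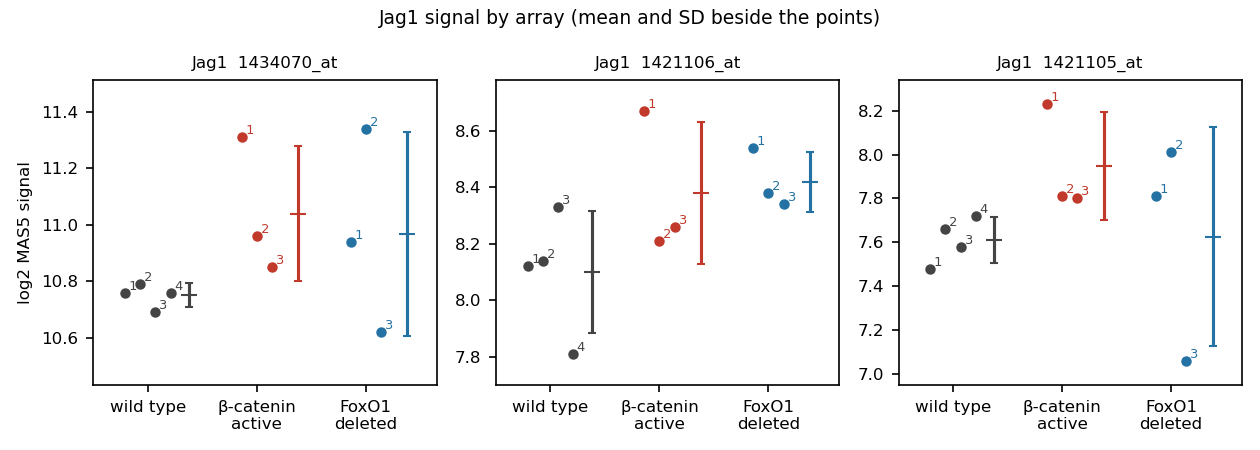
Log2 MAS5 signal of the 3 Jag1 probe sets in each array, with the array's replicate number beside each point and the mean ± SD of each genotype to its right (4 wild-type, 3 β-catenin and 3 FoxO1 arrays). The β-catenin arrays clear wild type in 1434070_at and 1421105_at, and FoxO1 arrays clear it narrowly in 1421106_at.

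Jag2, the other Jagged ligand, had 2 tested probe sets near the table's median. The first, 1426431_at, read 7.17, 7.87, 7.65 and 7.91 in wild type, 8.09, 7.83 and 7.79 in the β-catenin arrays and 7.92, 7.44 and 7.45 in the FoxO1 arrays. The second, 1426430_at, read 7.37, 7.44, 6.69 and 6.82 in wild type, 7.74, 7.19 and 7.87 in the β-catenin arrays and 7.40, 7.64 and 7.19 with FoxO1 deleted. All groups overlapped in both. The β-catenin differences were 0.25 ± 0.21 (adjusted p = 0.726) and 0.52 ± 0.25 (interval -0.03 to 1.07, adjusted p = 0.468). The latter was 0.20 in the arrays with low Xist signal alone. The FoxO1 differences were -0.05 ± 0.21 (adjusted p = 0.972) and 0.33 ± 0.25 (adjusted p = 0.768). The probe sets correlated with each other at only 0.09 over the 10 arrays.

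Dll1, a Delta-like ligand that activates Notch receptors in trans, was the tested ligand whose FoxO1 arrays were all low. Its probe set 1419204_at read 7.55, 7.66, 7.97 and 7.52 in wild type, 7.49, 7.69 and 8.13 in the β-catenin arrays and 7.24, 7.46 and 7.06 in the FoxO1 arrays. Each FoxO1 array was below each array of the other groups. The difference from wild type was -0.42 ± 0.20 (interval -0.86 to 0.01, adjusted p = 0.641), and the β-catenin group exceeded the FoxO1 group by 0.52 ± 0.21 (interval 0.05 to 0.98, adjusted p = 0.594). The β-catenin group differed from wild type by 0.10 ± 0.20 (adjusted p = 0.915).

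Dll4, the Delta-like ligand best known from sprouting vessels, had 1 probe set just inside the filter. That probe set, 1421827_at, read 7.31, 7.36, 7.04 and 6.94 in wild type, 6.96, 7.11 and 6.69 in the β-catenin arrays and 7.17, 6.72 and 7.42 in the FoxO1 arrays, with 4 of 10 arrays above the table median. It differed by -0.24 ± 0.23 in the β-catenin group (adjusted p = 0.767) and -0.06 ± 0.23 in the FoxO1 group (adjusted p = 0.966), with all groups overlapping. Of the member probe sets outside the filter, Dll4 1421826_at came nearest to it, with a third-highest value of 6.44 and no array above the table median. It read 6.50, 6.52, 3.59 and 5.87 in wild type, 6.44, 5.73 and 6.06 in the β-catenin arrays and 3.99, 4.00 and 4.83 with FoxO1 deleted.

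Dll3, a divergent family member that acts within the cell on Notch rather than as a ligand from outside, was not tested. Its probe set 1449236_at stayed under the table median in all arrays, at 5.49, 5.76, 6.00 and 5.89 in wild type, 6.23, 6.05 and 5.84 in the β-catenin arrays and 5.13, 5.93 and 3.62 with FoxO1 deleted.

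Dlk1, a non-canonical ligand that lacks the domain by which Delta and Jagged bind Notch and is known as an inhibitor of fat cell formation, varied most among the tested member probe sets. Its probe set 1449939_s_at read 11.84, 11.53, 12.87 and 12.68 in wild type, 10.47, 13.11 and 12.34 in the β-catenin arrays and 12.65, 11.46 and 12.15 in the FoxO1 arrays. The spread lay within the genotypes, each of which held both high and low arrays. Its range of 2.64 was wider than that of 98.5% of all tested probe sets. The second probe set, 1442724_at, read 7.53, 7.75, 8.81 and 8.90 in wild type, 7.73, 9.38 and 9.17 in the β-catenin arrays and 9.34, 8.02 and 8.63 with FoxO1 deleted, a range of 1.85.

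With that spread the genotypes could not be separated for Dlk1. The β-catenin group differed by -0.26 ± 0.54 for the first probe set (interval -1.43 to 0.92, adjusted p = 0.915) and 0.51 ± 0.46 for the second (interval -0.49 to 1.51, adjusted p = 0.751). The first changed from -0.83 to 0.50 as single arrays were left out, the latter value without β-catenin array 1. The second ran from 0.20 without β-catenin array 2 to 1.03 without β-catenin array 1, and was 1.12 in the arrays with low Xist signal alone. The FoxO1 differences were -0.14 ± 0.54 (adjusted p = 0.965) and 0.42 ± 0.46 (adjusted p = 0.850). Without FoxO1 array 1 the second of these was 0.08.

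Skeletal muscle markers moved with Dlk1. Of the 10 listed markers (structural genes such as Acta1 and Ckm and the regulators Myog and Myod1), 9 were tested. Their mean signal was 11.62, 11.69, 12.74 and 12.65 in wild type, 11.51, 12.93 and 12.51 in the β-catenin arrays and 12.77, 11.72 and 12.26 in the FoxO1 arrays. The arrays low in the markers were the same as those low in Dlk1: wild type 1 and 2, β-catenin array 1 and FoxO1 array 2. Over the 10 arrays the mean correlated with the Dlk1 probe sets at r = 0.93 and 0.96 (rho = 0.92 and 0.94), at 0.96 and 0.99 after the genotype means were removed, and at 0.95 and 0.94 without the 2 arrays furthest from the median of Dlk1. Other marker lists also moved with Dlk1 1449939_s_at and 1442724_at. The mean of the adipocyte markers correlated with them at 0.62 and 0.73. That of the osteoblast markers ran opposite, at -0.77 and -0.47, as did that of the osteoclast markers, at -0.57 and -0.86. After the genotype means were removed, the osteoblast values were -0.85 and -0.87. The part of RNA of muscle or other cells in the Dlk1 signal was not tested.

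**Figure D3:**
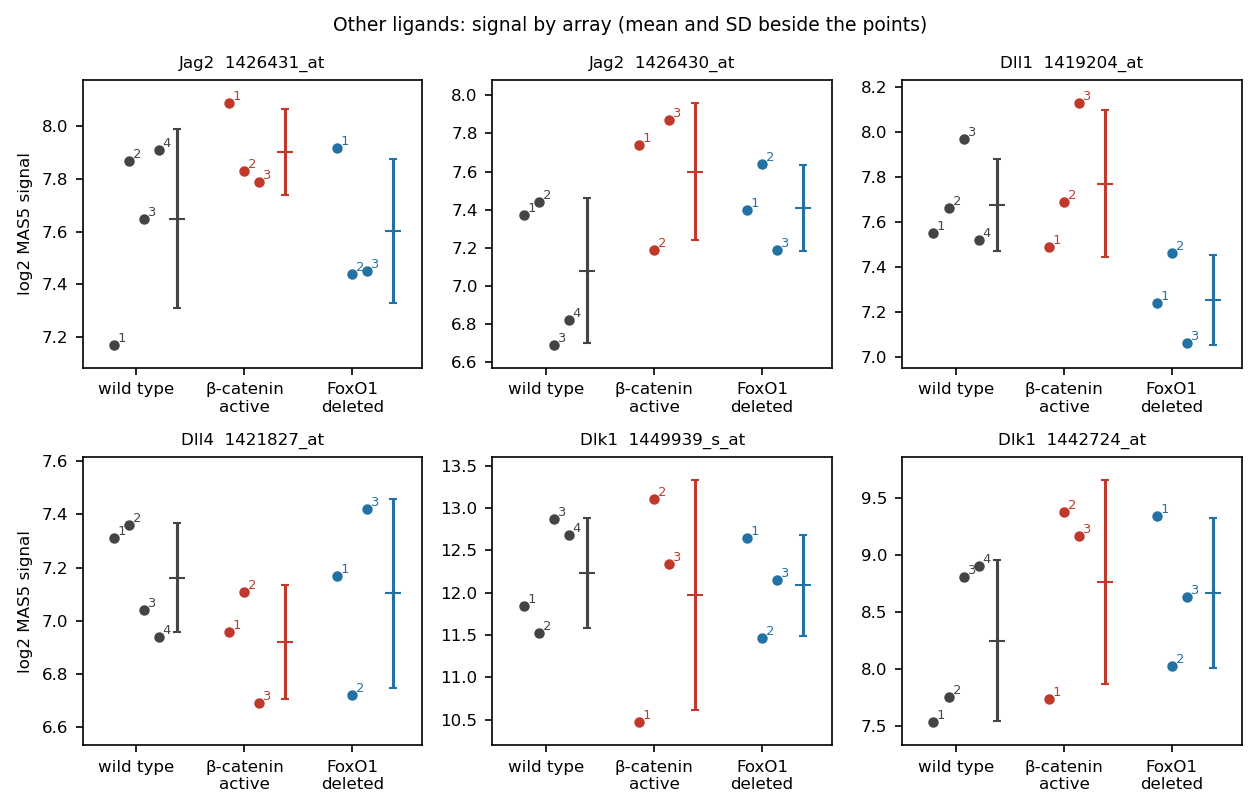
Log2 MAS5 signal of the 6 tested probe sets of Jag2, Dll1, Dll4 and Dlk1 in each array, numbered by replicate, with the mean ± SD of each genotype to the right of its points. The FoxO1 arrays lie below the others for Dll1, from 7.06 to 7.46, and the Dlk1 arrays spread widely within each genotype; the vertical scales differ between the plots.

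Among the receptors, Notch1, the most widely studied of them and essential in blood cell development, had the smallest p of any member against wild type. Its probe set 1418634_at read 10.01, 9.94, 9.82 and 10.17 in wild type, 10.48, 10.28 and 10.41 in the β-catenin arrays and 10.15, 10.31 and 10.25 in the FoxO1 arrays. The β-catenin arrays lay above all wild-type arrays, and the FoxO1 arrays between them with some overlap on both sides. The β-catenin group was higher by 0.41 ± 0.10, or 1.32-fold, with an interval of 0.19 to 0.62, and did not pass (adjusted p = 0.114). Over the alternatives run, its adjusted p ran from 0.0931 to 0.571. The FoxO1 group was higher by 0.25 ± 0.10, with an interval of 0.03 to 0.47 (adjusted p = 0.593). Without correction for the number of probe sets both intervals exclude 0; after it neither difference passed.

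The second Notch1 probe set, 1418633_at, read 7.86, 8.30, 8.43 and 8.20 in wild type, 8.78, 8.44 and 8.23 in the β-catenin arrays and 8.28, 8.23 and 8.39 with FoxO1 deleted. Its groups overlapped, with differences of 0.29 ± 0.17 (interval -0.08 to 0.65, adjusted p = 0.578) and 0.10 ± 0.17 (interval -0.26 to 0.47, adjusted p = 0.907). It correlated with the first at 0.39 over the 10 arrays.

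Notch2, a receptor with a known role in skeletal remodelling, had the one receptor probe set with a negative difference in the β-catenin group. Its probe set 1455556_at read 11.92, 11.88, 11.90 and 11.89 in wild type, 11.73, 11.70 and 11.69 in the β-catenin arrays and 11.81, 11.58 and 12.07 in the FoxO1 arrays. The β-catenin arrays sat in a narrow band below the equally narrow wild-type band, and the FoxO1 arrays reached beyond both. The β-catenin difference was -0.19 ± 0.10 (interval -0.41 to 0.03, adjusted p = 0.518), and that of the FoxO1 group -0.08 ± 0.10 (interval -0.30 to 0.14, adjusted p = 0.880). The SE is set in part by the FoxO1 arrays, whose SD was 0.25 against 0.02 in each other group: fitted on the groups compared alone, the adjusted p was 0.200. Quantile and median scaling left the sign as it was, with differences of -0.18 and -0.19. A second Notch2 probe set, 1451889_at, stayed under the table median in all arrays, between 4.30 and 6.32.

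Notch3, a receptor known best from smooth muscle and pericytes around vessels, had the largest β-catenin difference of the tested receptor probe sets. Its probe set 1421965_s_at, whose suffix marks probes that can match more than one transcript, read 10.28, 10.29, 10.20 and 10.23 in wild type. It read 10.92, 10.60 and 10.55 in the β-catenin arrays and 10.40, 10.54 and 10.02 in the FoxO1 arrays. The β-catenin arrays were above every other array. They exceeded wild type by 0.44 ± 0.13, or 1.36-fold (interval 0.16 to 0.72, adjusted p = 0.179), and the FoxO1 group by 0.37 ± 0.14 (interval 0.07 to 0.67, adjusted p = 0.509). The FoxO1 group differed from wild type by 0.07 ± 0.13 (interval -0.21 to 0.35, adjusted p = 0.918).

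The second Notch3 probe set, 1421964_at, disagreed with the first. It read 8.26, 7.77, 8.08 and 8.22 in wild type, 8.35, 8.13 and 8.11 in the β-catenin arrays and 7.91, 7.63 and 7.53 with FoxO1 deleted. The β-catenin and wild-type arrays overlapped, with a difference of 0.11 ± 0.16 (interval -0.24 to 0.47, adjusted p = 0.859), while the FoxO1 arrays were the low ones, at -0.39 ± 0.16 from wild type (interval -0.75 to -0.04, adjusted p = 0.608). The β-catenin group exceeded the FoxO1 group by 0.51 ± 0.17 (interval 0.13 to 0.89, adjusted p = 0.437), the smallest p of the members in that comparison. For Notch3 both probe sets thus placed the β-catenin arrays above the FoxO1 arrays without overlap, and they differed on where wild type lay.

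Notch4, a receptor known from endothelium, was tested through 1449146_at. It read 8.91, 8.98, 8.60 and 8.71 in wild type, 9.27, 8.90 and 9.08 in the β-catenin arrays and 9.02, 8.97 and 8.48 in the FoxO1 arrays, with all groups overlapping. The differences were 0.28 ± 0.16 (interval -0.06 to 0.63, adjusted p = 0.553) and 0.02 ± 0.16 (interval -0.32 to 0.37, adjusted p = 0.983). Of its other probe sets, 1456263_at lay between 3.30 and 6.12. The last, 1436901_at, read 4.01, 3.11, 2.96 and 3.11 in wild type, 5.65, 4.92 and 5.48 in the β-catenin arrays and 3.36, 4.80 and 2.82 with FoxO1 deleted. The β-catenin arrays were the highest there, at signals under the table median, where the probe set was not tested.

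**Figure D4:**
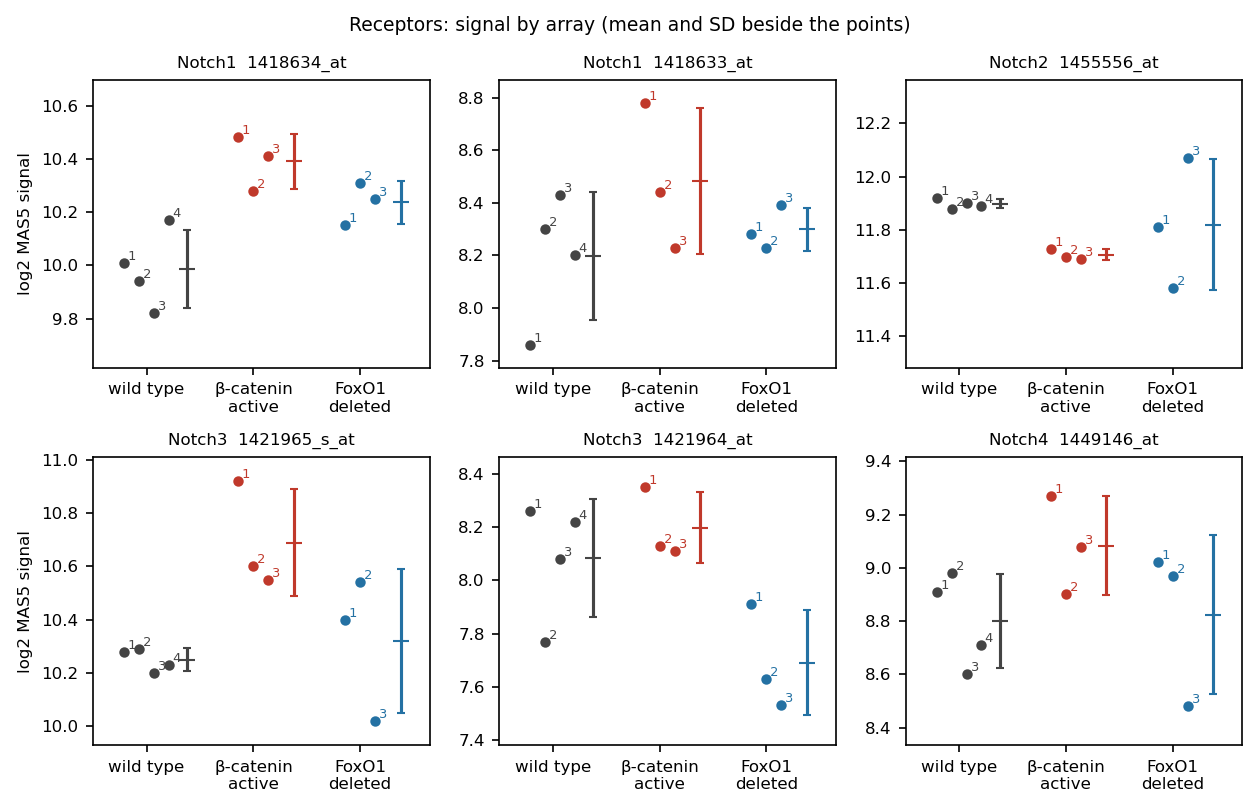
Log2 MAS5 signal of the 6 tested receptor probe sets in each array, numbered by replicate, with the mean ± SD of each genotype to the right of its points. The β-catenin arrays lie above wild type for Notch1 1418634_at and Notch3 1421965_s_at and below it for Notch2 1455556_at; the vertical scales differ between the plots.

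Endothelial markers moved with some of the member probe sets. All 15 listed endothelial markers were tested, 12 had a positive difference between the β-catenin group and wild type, with a median of 0.40, and 0 were called. Their mean signal was 9.46 to 9.49 in wild type, 9.68 to 9.93 in the β-catenin arrays and 9.54 to 9.63 in the FoxO1 arrays. Over the 10 arrays it correlated with Notch3 1421965_s_at at r = 0.90 (rho = 0.81), Notch1 1418634_at at 0.82 (rho = 0.78), Jag1 1434070_at at 0.72 (rho = 0.68) and Notch4 1449146_at at 0.71 (rho = 0.64). After the genotype means were removed these were 0.78, 0.32, 0.70 and 0.63, and without the 2 arrays furthest from the probe set's median 0.92, 0.87, 0.67 and 0.82. Jag1 1421105_at and 1421106_at correlated with the endothelial mean at 0.70 and 0.68, Notch1 1418633_at at 0.68 and Jag2 1426430_at at 0.65. Without the 2 arrays furthest from the probe set's median these were 0.71, 0.32, -0.10 and 0.58. Jag2 1426431_at correlated at 0.54, Dll1 at 0.08, the Dlk1 probe sets at -0.45 and 0.05, and Dll4 1421827_at at -0.47. The second Notch3 probe set, 1421964_at, correlated with that mean at only 0.30 (rho = 0.05), and Notch2 1455556_at at -0.61 (rho = -0.71). The 10 pericyte and smooth muscle markers had means of 10.14 to 10.74, 10.69 to 10.97 and 10.36 to 10.82 in wild type, β-catenin and FoxO1 arrays. Their mean correlated with Notch3 1421965_s_at at 0.61, Notch1 1418634_at at 0.46 and Notch4 1449146_at at 0.34, and at 0.34, -0.04 and 0.05 after the genotype means were removed. It also correlated with Jag2 1426431_at at 0.74, Notch1 1418633_at at 0.69, Jag1 1421105_at at 0.66 and Jag1 1434070_at at 0.48. After the genotype means were removed these were 0.69, 0.56, 0.54 and 0.28. With Dll4 1421827_at and Notch2 1455556_at it correlated at -0.57 and -0.49. The mean of the leukocyte and macrophage markers correlated with these 2 probe sets at 0.79 and 0.60. After the genotype means were removed these were 0.77 and 0.56, and without the 2 arrays furthest from the probe set's median 0.72 and 0.39. With every other tested member probe set that mean correlated negatively, at -0.62 to -0.05. The part of vessel or blood cells in the ligand and receptor differences was not tested.

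The brightest probe sets of Jag1 and Notch3 were high and low in the same arrays. Over the 10 arrays Jag1 1434070_at correlated with Notch3 1421965_s_at at r = 0.85 (rho = 0.90), at 0.96 after the genotype means were removed and at 0.90 without the 2 arrays furthest from the median of Jag1. β-catenin array 1 and FoxO1 array 2 were the highest of their groups in both, and FoxO1 array 3 was the lowest array in both. Other probe sets of these genes went together less: Jag1 1434070_at with Notch3 1421964_at at 0.09, Jag1 1421106_at with Notch3 1421965_s_at at 0.51, or 0.01 without 2 arrays, and Jag1 1421106_at with Notch3 1421964_at at -0.12. Notch2 1455556_at ran opposite to Jag1 1434070_at, at r = -0.82 (rho = -0.89) and -0.86 without those 2 arrays. Notch3 1421965_s_at correlated with Notch4 1449146_at at 0.87 (rho = 0.78) and at 0.66 without the 2 arrays furthest from its median. These arrays share 1 scaling and differ in the 3′ over 5′ ratio of Actb, so the values are a description.

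Over 11356 genes, the one whose signal was most like that of Notch3 was Heyl, a transcription factor of the Hey family and itself a target of Notch, at r = 0.97 (rho = 0.94) over the 10 arrays. Heyl read 8.32, 8.38, 8.22 and 8.21 in wild type, 8.95, 8.63 and 8.67 in the β-catenin arrays and 8.31, 8.48 and 8.05 in the FoxO1 arrays. For Jag1 1434070_at the most alike were Dennd4c at 0.96, Socs5 at 0.96, Ythdf3 at 0.94, Noc3l at 0.94 and Clstn1 at 0.94, and 1 gene in 100 reached 0.83 or more. Without the 2 arrays furthest from the median of Jag1 these were 0.81, 0.75, 0.78, 0.88 and 0.80. The gene most like Dlk1 was AW551984 at 0.99, and for Notch2 it was St6galnac4 at 0.96. For the other members these were Fbxw22 (Jag2, 0.92), Rhobtb2 (Dll1, 0.91), Gm20199 (Dll4, 0.93), Slc38a7 (Notch1, 0.94) and Usp24 (Notch4, 0.95).

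**Figure D5:**
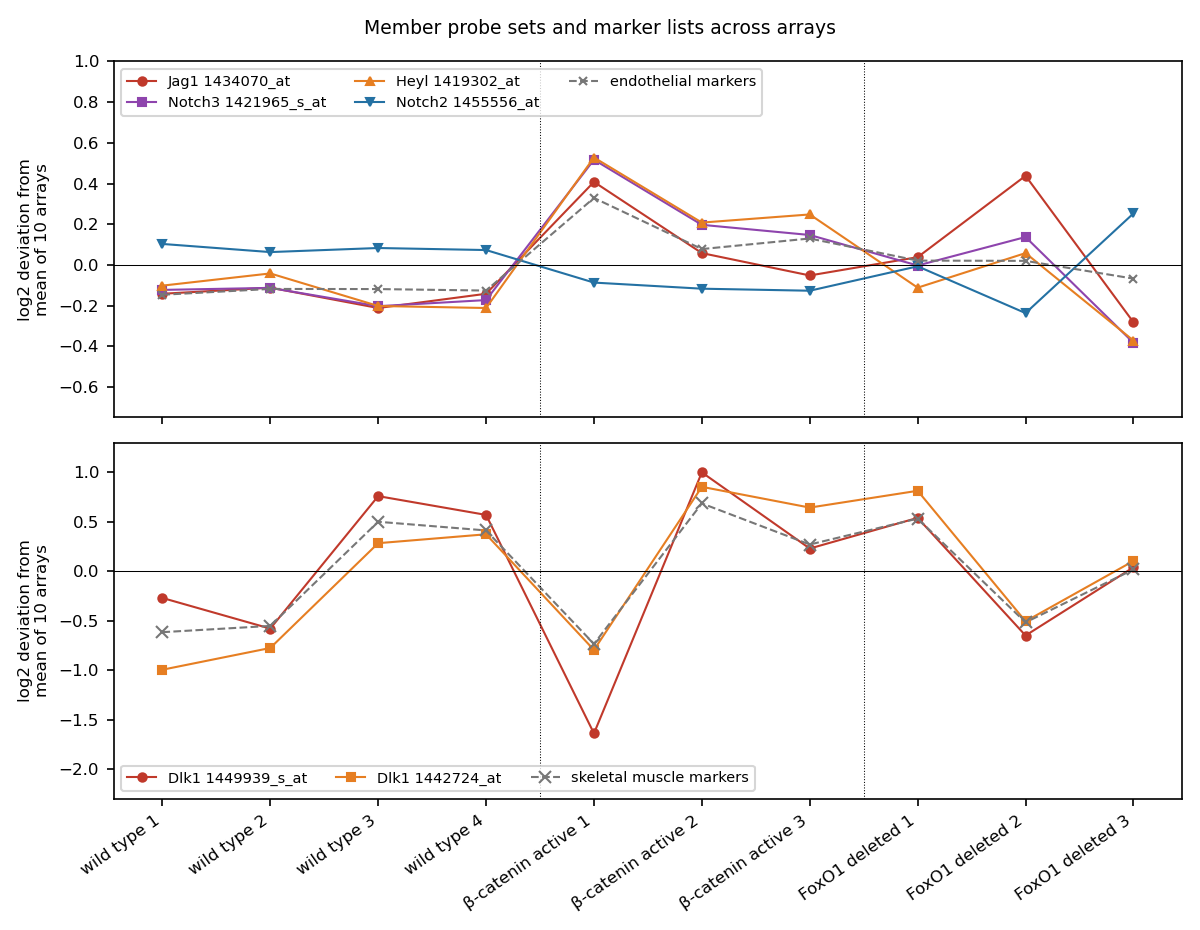
Deviation of log2 signal from the mean of the 10 arrays for Jag1, Notch3, Heyl, Notch2 and the mean of the endothelial markers (top), and for both Dlk1 probe sets and the mean of the skeletal muscle markers (bottom); arrays have no order within a genotype, and the lines only join the points of a series. Notch3 and Heyl stay together in all arrays (r = 0.97), Notch2 mirrors Jag1 (r = -0.82), and Dlk1 follows the muscle markers (r = 0.93 and 0.96).

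The rest of the pathway was read through 5 lists. Of 10 listed Notch target genes 6 were tested, and Hey1, a transcriptional repressor induced by Notch, was the only one called. Hey1 read 9.17, 9.19, 8.69 and 8.60 in wild type, 10.63, 10.17 and 10.53 in the β-catenin arrays and 8.50, 9.29 and 8.22 in the FoxO1 arrays. Every β-catenin array was above every other array. It rose by 1.53 ± 0.24, or 2.89-fold, against wild type (adjusted p = 0.0196) and was 3.42-fold higher than in the FoxO1 group (adjusted p = 0.0131). The call against wild type was lost without wild type 3 (0.0618) or 4 (0.0601), without β-catenin array 1 (0.0927) or 3 (0.0805), with a term for Xist signal (0.172), and with the similar wild-type arrays averaged (0.207). The call against the FoxO1 group was lost without β-catenin array 1 (0.0518) or 3 (0.0678), without FoxO1 array 1 (0.0670), on these groups alone (0.0537) and with a term for Xist signal (0.275), all these being adjusted p-values. In these settings the difference stayed at 1.39 to 1.53 against wild type and 1.60 to 1.77 against the FoxO1 group. In the FoxO1 group Hey1 differed from wild type by -0.24 ± 0.24 (adjusted p = 0.835).

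The other targets did not pass. Heyl differed between the β-catenin group and wild type by 0.47 ± 0.14 (adjusted p = 0.183) and between the FoxO1 group and wild type by -0.002. Hes1, the widely used Notch target, differed by 0.46 ± 0.26 (adjusted p = 0.551) and 0.15 ± 0.26 (adjusted p = 0.912), its FoxO1 arrays running from 8.05 to 9.41. Myc, a growth regulator, differed by -0.24 ± 0.11 (adjusted p = 0.457) and -0.30 ± 0.11 (adjusted p = 0.582). Hes6 and the cell cycle gene Ccnd1 each differed by 0.09 in the β-catenin group. The median difference of the 6 tested targets was 0.28 in the β-catenin group and -0.07 in the FoxO1 group, against 0.005 and 0.000 over all genes. Hes5, Hes7, Hey2 and Gata3 stayed too dim to be tested.

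Among the genes that bring ligand and receptor to cleavage, 12 were tested and 0 were called in any comparison. In the β-catenin group against wild type the smallest p belonged to Aph1b, a γ-secretase subunit, at 0.22 ± 0.12 (adjusted p = 0.559), and Neurl1b, an E3 ligase that promotes ligand endocytosis, at 0.34 ± 0.24 (adjusted p = 0.663). The 6 genes that glycosylate Notch gave 0 calls. In the β-catenin group against wild type Pofut1, which adds fucose, differed by 0.16 ± 0.09 (adjusted p = 0.572) and Poglut1, which adds glucose, by 0.14 ± 0.11 (adjusted p = 0.687). In the FoxO1 group Pofut1 differed from wild type by 0.21 ± 0.09 (adjusted p = 0.626). For the 16 tested genes of the nuclear complex and of the brakes on Notch there were again 0 calls. There, Numb, an inhibitor of Notch, read 9.96 to 10.14 in wild type and 10.39 to 10.57 in the β-catenin arrays, a difference of 0.42 ± 0.09 (adjusted p = 0.0853), and 10.20 to 10.42 in the FoxO1 arrays (0.29 ± 0.09, adjusted p = 0.509). Dtx3, an E3 ligase of the Deltex family, differed by 0.45 ± 0.13 in the β-catenin group (adjusted p = 0.177). The family did not move as one. Dtx4 read 9.61 to 9.94 in wild type and lower in the β-catenin arrays, at 9.03 to 9.45. Dtx2 overlapped, at 8.56 to 8.88 in wild type and 8.42 to 8.92 in the β-catenin arrays. Of 7 non-canonical ligands 0 were called; Egfl7, which is also in the endothelial list, differed by 0.32 ± 0.13 (adjusted p = 0.337) and Mfap2, a microfibril protein, by -0.25 ± 0.11 (adjusted p = 0.422).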

How the data were processed

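Total RNA of osteoblasts of 3 genotypes was measured on 10 arrays (4, 3 and 3), biotin-labelled from 500 ng RNA per the labels. The deposited table holds log2 signal, which the authors made with MAS5 (per the submitters' processing notes, version not given). The log base follows from the values (-3.86 to 15.86): taken as log2, each array's mean linear signal, after trimming 2% at each end, was near 500, between 499.99 and 500.01. The sources used here give no further normalization across arrays. The number of arrays limits the precision.

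Of 45101 probe sets, 34958 had 1 gene in the platform annotation, 932 several and 9211 none listed. Control probe sets (64, of which 13 had 1 gene) were left out. Probe sets whose third-highest value exceeded 7.15 were fitted with limma 3.58.1 in R 4.3.3: 1 mean per genotype, all 10 arrays, eBayes with a trend in the variance, two-sided tests, called at a Benjamini-Hochberg adjusted p under 0.05 (7 residual degrees of freedom before moderation). Intervals are unadjusted.

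Every member probe set is named, as are the genes most alike by Pearson correlation over 10 arrays (5 for Jag1, 1 for each other member, through its brightest tested probe set) and, of each pathway list, the genes called or the 2 with the smallest p. The other Notch targets, Dtx2, Dtx4 and the values of Pofut1 in the FoxO1 group were given beyond this after their values were seen. Members and lists were chosen with earlier results of these data known. Alternatives were 2 other filters, 1 probe set per gene, quantile and median scaling, only the groups compared, replicate block, array weights, 2 other variance priors, 16 added on the linear scale, similar wild-type arrays averaged, a term for Xist signal and leaving out each array; arrays with low Xist signal alone were added after seeing the data. The sources used here give no pairing by replicate number, and none was assumed in the main fit. Deviations of same-numbered arrays correlated at -0.26 to 0.24. With so few arrays these values cannot exclude a pairing.

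Tested on simulated data for the β-catenin group against wild type over 20119 probe sets, the fit recovered 26.7% of log2 changes of 0.5, 74.7% of 1 and 94.7% of 2. Over the simulations of all comparisons together, 3.65% of the calls were false. The simulated noise was independent between arrays, without the similar wild-type pairs of the data, so these values may not carry over to the data. Columns of other samples numbered 0. Promoters came from RefSeq on GRCm38.p6.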

Additional observations from a re-analysis of the deposited data

Results flagged for a closer look

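In 2 of 20 groups of wild-type values, 1 for each member probe set, a single array stood apart by a gap above the critical share of the group's range. Chance gives such a gap in about 1 in 20 groups. For Notch2 1451889_at, wild type 1 read 4.36 while the nearest other wild-type array read 6.05, a gap of 0.862 of the range. For Notch4 1436901_at, wild type 1 read 4.01 while the nearest other read 3.11, a gap of 0.857 of the range. In both probe sets all 10 arrays lay under the table median, and neither was tested.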

How the results depend on the processing

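Under all alternatives run, 0 member probe sets were called in any comparison, with 0 to 6 at an unadjusted p under 0.05. The direction of Jag1 1434070_at, Notch1 1418634_at, Notch2 1455556_at and Notch3 1421965_s_at in the β-catenin group against wild type was the same in all 24 alternatives. Counts over all probe sets moved more, and the cause was not tested. The 102 called between the β-catenin group and wild type became 170 on the groups compared alone, 20 with the replicate block, 13 with similar wild-type arrays averaged, 14 with a term for Xist signal, 205 in arrays with low Xist signal alone, and 39 to 143 with 1 array left out. The 3 called between the FoxO1 group and wild type became 1 with median scaling, 1 on the groups compared alone, 0 with the replicate block (1092 at an unadjusted p under 0.05), 72 with array weights, 8 without a trend, 0 with similar arrays averaged (626 at an unadjusted p under 0.05), 127 in arrays with low Xist signal alone, which leave 1 FoxO1 array assumed to vary like the others, and 0 to 8 with 1 array left out. The 89 called between both altered genotypes became 24 on the groups compared alone, 26 with the replicate block, 37 with similar arrays averaged, 0 with a term for Xist signal (881 at an unadjusted p under 0.05), 13 in arrays with low Xist signal alone, and 32 to 79 with 1 array left out. With the replicate block Hey1 no longer passed against wild type (1.43, adjusted p = 0.0987). With intervals this wide, member changes of the size of the SE were not detectable.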
